A study of Mus musculus with 4 samples.

Results

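The retinoid genes described here are 9 genes that bind, make, break down or sense retinoic acid: Crabp1, Crabp2, Aldh1a1, Aldh1a2, Aldh1a3, Dhrs9, Rdh10, Cyp26b1 and Rarg. They were taken by name, through the gene symbol that the array annotation gives each probe set, a group of short probes read as 1 transcript. This gave 12 probe sets for 8 of the 9 genes, out of 45037 probe sets and 18193 genes tested. No probe set carried the symbol Dhrs9, so that gene was not analysed here.

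Mouse tail epidermis was dissociated 9 weeks after the first of 10 daily injections of 2.5 mg tamoxifen, and basal interfollicular cells were sorted that carried integrin alpha 6 and lacked CD34 on their surface. All mice carried K14CreER, a tamoxifen-dependent Cre recombinase driven by the keratin 14 promoter of basal keratinocytes, and SmoM2, a constantly active form of the Hedgehog transducer Smoothened. The SmoM2 group (K14CreER:SmoM2, 2 arrays) kept Sox9, and in the Sox9cKO group (K14CreER:SmoM2:Sox9cKO, 2 arrays) the transcription factor gene Sox9 was conditionally deleted. The deletion is therefore limited to cells in which the recombinase was active, and the labels do not give the age or sex of the mice or how many went into each array.

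Retinoic acid is made from vitamin A in the cells that use it. Retinol is first oxidised to retinal, by enzymes such as Rdh10 and Dhrs9, in a reversible step, and retinal is then oxidised irreversibly to retinoic acid by the Aldh1a enzymes. Crabp2 carries retinoic acid to its nuclear receptors, Crabp1 holds it in the cytoplasm, and Cyp26 enzymes degrade it. In the epidermis, where Rarg is the main retinoic acid receptor, the pathway is known for its control of keratinocyte differentiation and of hair follicle and sebaceous gland growth.

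The arrays were alike in scale, with median log2 signals between 5.45 and 5.48. Pearson's r over probe sets was 0.991 within each genotype and 0.978 to 0.980 between genotypes, across probe sets, which are not independent replicates. At the probe set that responded most, the Sox9 signal was 10.21 and 10.02 in SmoM2 and 6.75 and 5.70 in Sox9cKO, while 2 further probe sets for Sox9 changed by -0.75 and -0.41 and were not called. Keratin 5 (Krt5), which defines basal keratinocytes, read 13.20 and 13.41 in SmoM2 and 13.20 and 13.40 in Sox9cKO, and Cd34, the marker sorted against, read 3.75 to 4.15. Keratin 14 (Krt14), the partner of keratin 5, read 13.51 and 13.76 in SmoM2 and 13.15 and 13.30 in Sox9cKO, and Itga6, which encodes the integrin used in the sort, read 11.42 and 11.77 against 11.14 and 11.15. Both were lower in Sox9cKO without overlap and were not called (adjusted p = 0.209 and 0.192, limma). Y-linked genes read 6.74 to 9.48 on SmoM2 replicate 2 and Sox9cKO replicate 1 and 3.23 to 3.62 on the other arrays. The arrays with Y-linked signal were not alike at the 3 probe sets of the X-linked transcript Xist, which read 6.38, 5.32 and 8.11 on SmoM2 replicate 2 and 9.49, 9.10 and 10.92 on Sox9cKO replicate 1, against 9.98 to 11.97 on the others. Differences between arrays with Y-linked signal, and a block for it, therefore match the arrays for that signal alone. The labels do not name separate animals, so the p-values measure only the spread between these samples, which may be technical in part.

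Among the retinoid genes, Crabp2 and Aldh1a3 were lower in the Sox9cKO group, 3.60-fold and 3.88-fold, and none was called higher. With limma and Benjamini-Hochberg adjustment over all genes, 2 of the 8 measured genes had an adjusted p under 0.05, both lower, where 3.53% of all genes were lower and 2.66% higher. Arrays of the genotypes did not overlap for 4 of the 8, all lower in Sox9cKO, against 21.8% of all genes that were lower without overlap and 26% that were higher. The median log2 change was -0.21 over the 8 genes and 0.02 over all genes. At the level of probe sets, 4 of 12 were called lower and none higher, against 2.34% and 1.48% of all probe sets. For 1 gene alone, 2 arrays against 2 allow an exact permutation p of 0.333 at the lowest, and the calls therefore depend on limma's pooling of the spread over genes. A fit with 1 array left out sets 2 arrays against 1. Its p-values, and calls gained or lost by them, hold no spread for the genotype left with 1 array. In these sorted populations, fewer cells of a type and less RNA per cell cannot be told apart.

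**Figure D1:**
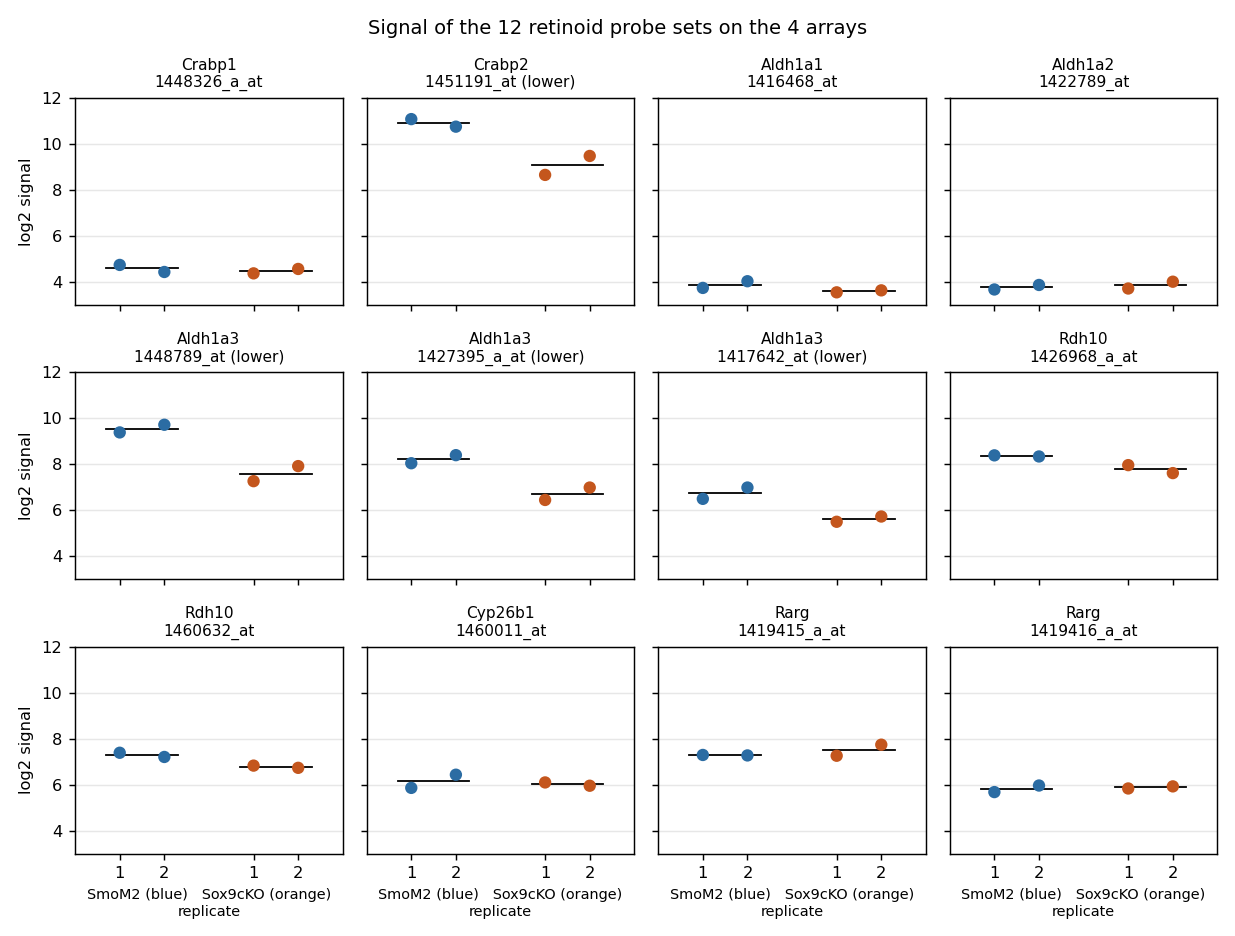
Log2 signal (y axis) of each of the 12 probe sets on each array (x axis: replicates 1 and 2 of SmoM2 in blue, of Sox9cKO in orange), with bars at the group means; titles give the gene and probe set and mark those called lower. Crabp2 and all 3 Aldh1a3 probe sets stand clearly lower in Sox9cKO, both Rdh10 probe sets are slightly lower, and Aldh1a1 and Aldh1a2 lie at the bottom of the scale in both genotypes.

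Crabp2, the carrier that delivers retinoic acid to nuclear receptors, was read by 1 probe set (1451191_at). Its log2 signal was 11.08 in SmoM2 replicate 1, 10.75 in SmoM2 replicate 2, 8.65 in Sox9cKO replicate 1 and 9.48 in Sox9cKO replicate 2. Both Sox9cKO arrays lay below both SmoM2 arrays, and the smallest difference between an array of one genotype and an array of the other was 1.27, larger than the gap of 0.82 between the Sox9cKO arrays and of 0.33 between the SmoM2 arrays. The mean fell by 1.85 on the log2 scale (SE 0.27), from 10.92 ± 0.23 to 9.07 ± 0.58 (SD, n = 2 each), with a 95% interval of -2.48 to -1.22 and adjusted p = 0.00819 (limma). Without SmoM2 replicate 1 the change was -1.68 and missed the threshold (adjusted p = 0.0760). The difference was -2.10 between the arrays with Y-linked signal and -1.60 between those without it.

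Crabp1, the related cytoplasmic binding protein, showed no such difference at its probe set (1448326_a_at). It read 4.74 and 4.44 in SmoM2 and 4.38 and 4.57 in Sox9cKO, all below the array median, and the groups overlapped. The log2 change was -0.12 (SE 0.16, adjusted p = 0.797, limma), and its 95% interval of -0.50 to 0.26 holds no change as large as any value within the Crabp2 interval. A difference between the changes of the binding proteins was not tested.

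Aldh1a3, an enzyme that forms retinoic acid from retinal, was lower at each of its 3 probe sets. The brightest (1448789_at) read 9.38 and 9.72 in SmoM2 and 7.27 and 7.92 in Sox9cKO (replicate 1 first, as in all such pairs here), without overlap and with a smallest difference of 1.46 between genotypes against gaps of 0.33 and 0.65 within them. Its mean fell by 1.96 (SE 0.23), from 9.55 ± 0.24 to 7.59 ± 0.46 (SD, n = 2 each), with a 95% interval of -2.51 to -1.41 and adjusted p = 0.00367 (limma). Of all the retinoid genes measured this was the lowest p. The change stayed called under each of the 11 alternatives tried, where it lay between -2.28 and -1.53 with adjusted p values of 8.67e-06 to 0.0406. It was -2.45 between the arrays with Y-linked signal and -1.46 between those without.

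The other Aldh1a3 probe sets pointed the same way with smaller changes. The intermediate one (1427395_a_at) read 8.05 and 8.40 in SmoM2 and 6.45 and 6.99 in Sox9cKO, a change of -1.50 (SE 0.22) or 2.83-fold (adjusted p = 0.0135 over all probe sets, limma). The dimmest (1417642_at) read 6.50 and 6.99 in SmoM2 and 5.50 and 5.73 in Sox9cKO, a change of -1.13 (SE 0.20) or 2.19-fold (adjusted p = 0.0277, limma). The size of the change thus followed the signal, from the brightest to the dimmest of the 3. On all 3, SmoM2 replicate 2 was the highest array and Sox9cKO replicate 1 the lowest. The intermediate probe set missed the threshold without SmoM2 replicate 2 (adjusted p = 0.0684). The dimmest missed it without SmoM2 replicate 2 (adjusted p = 0.0957), without Sox9cKO replicate 1 or 2 (adjusted p = 0.125 and 0.0662) and with a block for Y-linked signal (adjusted p = 0.0621).

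The other retinal dehydrogenases were dim on these arrays. Aldh1a1, a retinal dehydrogenase of many adult tissues, read 3.74 and 4.03 in SmoM2 and 3.55 and 3.64 in Sox9cKO at its probe set (1416468_at). The Sox9cKO arrays were the lower ones without overlap, by as little as 0.11, and the change of -0.29 (SE 0.15) was not called (adjusted p = 0.390, limma). Aldh1a2, the retinoic acid synthesising enzyme of the early embryo, read 3.68 and 3.87 in SmoM2 and 3.72 and 4.01 in Sox9cKO (1422789_at), with overlapping groups and a change of 0.09 (SE 0.16, adjusted p = 0.845, limma). Both lay close to the 3.23 to 3.62 that Y-linked genes gave on the arrays without Y-linked signal, and the mean of Aldh1a1 stood at the 6.66th percentile and that of Aldh1a2 at the 8.10th percentile of all genes. The deposited values carry no detection calls, so whether these transcripts were detected was not tested.

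Rdh10, the retinol dehydrogenase that supplies retinal to the Aldh1a enzymes, was lower on both Sox9cKO arrays at both of its probe sets but did not pass the test. The brighter (1426968_a_at) read 8.39 and 8.34 in SmoM2 and 7.96 and 7.62 in Sox9cKO, a change of -0.57 (SE 0.16, 95% interval -0.95 to -0.20, adjusted p = 0.0962, limma). The other (1460632_at) read 7.38 and 7.20 in SmoM2 and 6.82 and 6.73 in Sox9cKO, a change of -0.52 (SE 0.15, adjusted p = 0.132 over all probe sets, limma). The 2 probe sets therefore gave nearly the same value, and arrays of different genotype differed by at least 0.38 at each.

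Cyp26b1, a retinoic acid hydroxylase that limits the signal, did not differ beyond the spread of its arrays. It read 5.86 and 6.43 in SmoM2 and 6.09 and 5.95 in Sox9cKO (1460011_at), so that both Sox9cKO values fell between the SmoM2 values. The change was -0.12 (SE 0.20, 95% interval -0.60 to 0.36, adjusted p = 0.839, limma).

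Rarg, the retinoic acid receptor of the epidermis, overlapped between genotypes at both probe sets. The brighter (1419415_a_at) read 7.29 and 7.27 in SmoM2 and 7.25 and 7.73 in Sox9cKO, where replicate 2 alone stood above the rest. Its change was 0.22 (SE 0.18, 95% interval -0.21 to 0.64, adjusted p = 0.640, limma). The other (1419416_a_at) read 5.67 and 5.96 in SmoM2 and 5.83 and 5.92 in Sox9cKO, with a change of 0.06 (SE 0.16, adjusted p = 0.926 over all probe sets, limma).

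**Figure D2:**
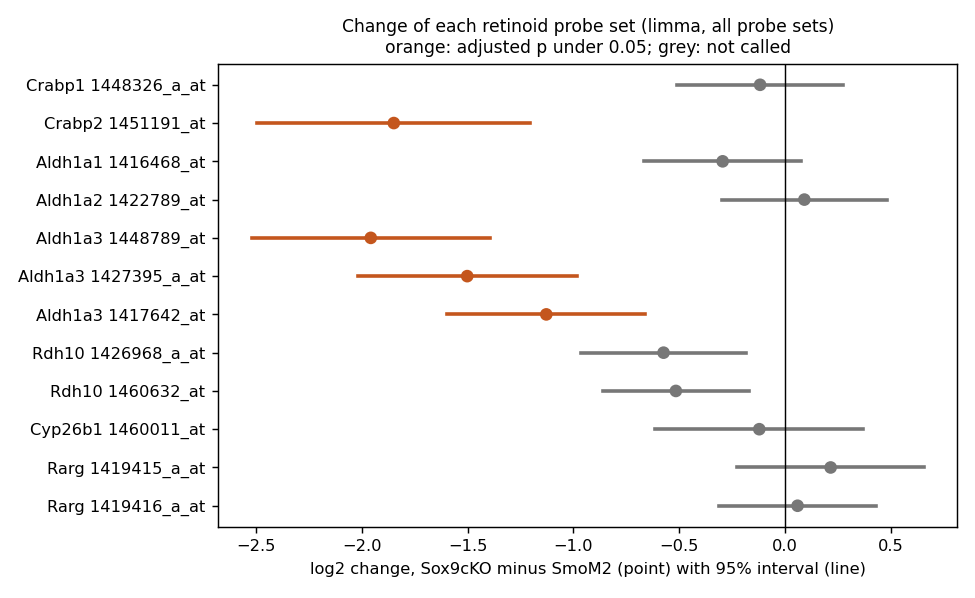
Log2 change, Sox9cKO minus SmoM2 (x axis), of each probe set (rows), as a point with its 95% interval as a line; orange marks an adjusted p under 0.05 over all probe sets and grey the rest. The Crabp2 and Aldh1a3 intervals reach no higher than -0.66, both Rdh10 intervals lie between -0.96 and -0.17, and those of the remaining probe sets include 0.

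**Figure D3:**
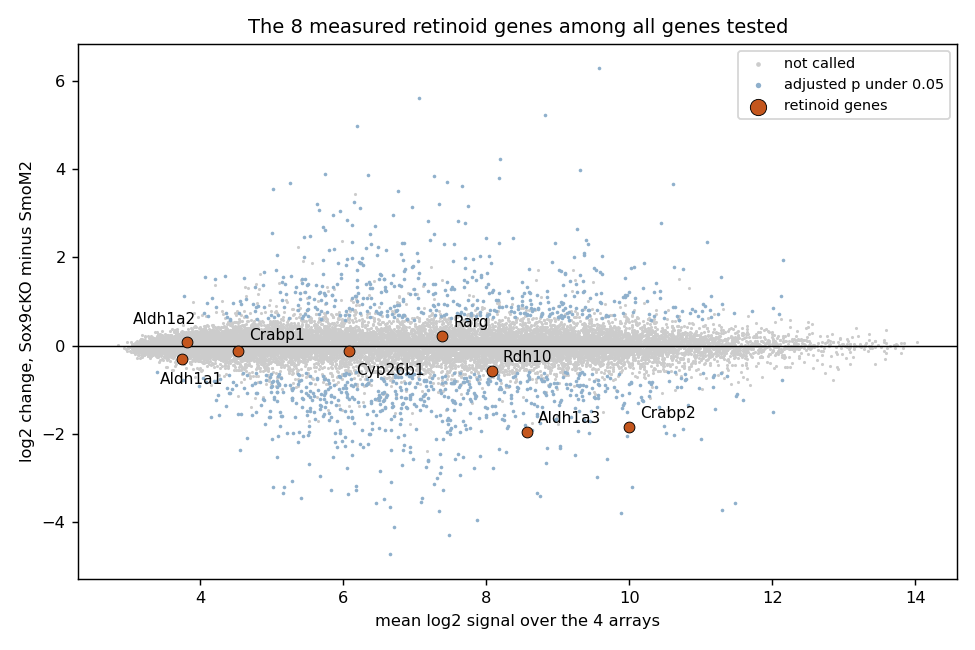
Log2 change, Sox9cKO minus SmoM2 (y axis), against mean log2 signal over the 4 arrays (x axis) for all 18193 genes, with genes at an adjusted p under 0.05 in blue and the 8 measured retinoid genes as labelled orange points. Crabp2 and Aldh1a3 lie at -1.85 and -1.96 among the called genes, and the other 6 lie between -0.57 and 0.22.

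The genes whose values over the 4 arrays came nearest to those of Aldh1a3, after each gene was centred on its own mean, were Tgfb3, a transforming growth factor, Cnfn, which encodes the cornified envelope protein cornifelin, Lifr, the receptor of leukaemia inhibitory factor, Lpar1, a lysophosphatidic acid receptor, and Glul, glutamine synthetase. Their root mean square distances from Aldh1a3 were 0.08, 0.08, 0.09, 0.10 and 0.10 on the log2 scale. Tgfb3 read 7.77 and 7.95 in SmoM2 and 5.57 and 6.10 in Sox9cKO, and thus like Aldh1a3 was highest in SmoM2 replicate 2 and lowest in Sox9cKO replicate 1. The log2 changes of the 5 genes lay between -2.03 and -1.88. For Rarg, which had the lowest p among the retinoid genes with a positive change, the 5 nearest genes (Abcg4, Dnase2b, Chst10, Tmem45a2 and Zfp729b) had distances of 0.01 to 0.03 and changes of 0.18 to 0.23, none of them called. The nearest genes were chosen by these same values, so their similar changes and array order follow from the choice. Likeness over 4 arrays describes these arrays alone.

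Of 53 measured genes elsewhere in the pathway (58 listed), 1 rose and 1 fell, 3.77% against 6.19% of all genes called in either direction, and their median change was -0.04 against 0.02 for all genes. The gene that fell was Adh7, an alcohol dehydrogenase that oxidises retinol, which read 10.19 and 9.17 in SmoM2 and 8.32 and 8.36 in Sox9cKO, a change of -1.34 (SE 0.30, adjusted p = 0.0476, limma). Its call was lost without SmoM2 replicate 1 (-0.83, adjusted p = 0.0739), without Sox9cKO replicate 1 or 2 (adjusted p = 0.119 and 0.111), when the prior was robust and followed intensity (adjusted p = 0.0836) and with quantile normalization (adjusted p = 0.0600). The gene that rose was Akr1b10, an aldo-keto reductase that can return retinal to retinol, which read 6.70 and 6.40 in SmoM2 and 8.17 and 7.73 in Sox9cKO, a change of 1.40 (SE 0.19, 2.64-fold, adjusted p = 0.00660, limma). Without SmoM2 replicate 2 it was 1.25 (adjusted p = 0.0616).

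Further genes that convert retinol and retinal lay apart without overlap but were not called. Sdr16c5, a retinol dehydrogenase of epidermis, read 8.81 and 8.34 in SmoM2 and 9.34 and 10.29 in Sox9cKO (change 1.24, adjusted p = 0.0675, limma). Without Sox9cKO replicate 1 it was 1.72 and without Sox9cKO replicate 2 it was 0.76, and with a block for Y-linked signal it passed (adjusted p = 0.0108, limma). Adh1, another alcohol dehydrogenase, named here after its values were seen, read 7.26 and 5.73 in SmoM2 and 4.60 and 4.97 in Sox9cKO (change -1.71, adjusted p = 0.0719, limma). Its SmoM2 arrays differed by more from each other than SmoM2 replicate 2 did from either Sox9cKO array. Without SmoM2 replicate 1 the Adh1 change was -0.95 and without SmoM2 replicate 2 it was -2.47, and it passed with a block for Y-linked signal (adjusted p = 0.0159, limma). Of the 22 measured genes of this step, 6 had an unadjusted p under 0.05 (limma), against 17.8% of all genes.

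None of 12 measured genes of retinol uptake, binding and storage was called by limma, against 6.19% of all genes, and 4 had an unadjusted p under 0.05, against 17.8%. Those of smallest p were all lower in Sox9cKO without overlap. Stra6, the membrane receptor that takes up retinol, read 5.69 and 5.18 in SmoM2 and 4.65 and 4.74 in Sox9cKO (change -0.74, adjusted p = 0.0736, limma). Rbp2, a cellular retinol-binding protein, read 7.44 and 7.00 against 6.67 and 6.11 (change -0.82, adjusted p = 0.0944, limma). Rbp7, another of these binding proteins, read 7.74 and 6.44 against 5.87 and 5.83 (change -1.24, adjusted p = 0.117, limma). Without SmoM2 replicate 2 Stra6 was at -0.99 and Rbp7 at -1.89, and without SmoM2 replicate 1 they were at -0.48 and -0.59. Rbp2 was at -1.10 without Sox9cKO replicate 1 and at -0.55 without Sox9cKO replicate 2. The SmoM2 arrays of Rbp7 differed by 1.30 and its Sox9cKO arrays by 0.03. Lrat, which esterifies retinol for storage and is named here after its values were seen, read 7.41 and 5.67 in SmoM2 and 6.75 and 4.99 in Sox9cKO. It was higher in replicate 1 than in replicate 2 of each genotype, by 1.73 and 1.77. Sox9cKO minus SmoM2 was -0.65 at replicate 1 and -0.69 at replicate 2, though replicate numbers are not known to pair arrays. Sox9cKO replicate 1 minus SmoM2 replicate 2 was 1.08, and Sox9cKO replicate 2 minus SmoM2 replicate 1 was -2.42. The Lrat change of -0.67 was not called (adjusted p = 0.698, limma), and it turned to 0.20 without SmoM2 replicate 1 and to 0.21 without Sox9cKO replicate 2.

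The list of further retinal dehydrogenases and retinoic acid degradation genes, the other receptors and the coregulators held no called gene. Of all genes, 6.19% were called and 17.8% had an unadjusted p under 0.05. Of 5 measured genes of the first list, which include the dehydrogenase genes Aldh1a7 and Aldh8a1, 1 had an unadjusted p under 0.05 (limma). This was Cyp1b1, a cytochrome P450 with broad substrates that include retinoids. It read 8.51 and 9.20 in SmoM2 and 8.21 and 6.98 in Sox9cKO (change -1.26, adjusted p = 0.138). Cyp1b1 was at -1.88 without Sox9cKO replicate 1 and at -0.64 without Sox9cKO replicate 2, and it passed with a block for Y-linked signal (adjusted p = 0.0117, limma). Cyp26a1, the inducible retinoic acid hydroxylase, changed by 0.19 at a signal of 4.87 to 5.16, below the array medians (adjusted p = 0.572, limma). The cytochrome P450 gene Cyp2s1 changed by 0.40 (adjusted p = 0.284, limma). Of 6 other receptors, 1 had an unadjusted p under 0.05: Ppard, a nuclear receptor that pairs with the retinoid X receptors, read 7.69 and 7.84 in SmoM2 and 7.41 and 7.01 in Sox9cKO (change -0.56, adjusted p = 0.130, limma). It was at -0.36 without Sox9cKO replicate 2 and as the mean of its probe sets. The retinoid X receptor gene Rxra changed by -0.21 (adjusted p = 0.529) and the retinoic acid receptor gene Rarb, itself induced by retinoic acid, by 0.15 at a signal of 3.94 to 4.19 (adjusted p = 0.669).

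Of 8 measured coregulators, 2 had an unadjusted p under 0.05 (limma), a share to read against the 17.8% of all genes. Nrip1, a corepressor that binds liganded receptors, changed by -0.59 (adjusted p = 0.0861), the chromatin regulator gene Kmt2e by 0.43 (adjusted p = 0.123) and the acetyltransferase gene Ep300 by 0.29 (adjusted p = 0.384). Nrip1 read 9.66 and 9.98 in SmoM2 and 9.28 and 9.19 in Sox9cKO, without overlap. Kmt2e was the most even of them, at 10.01 and 9.98 against 10.41 and 10.44. As the mean of its 6 probe sets each change was smaller, -0.28 for Nrip1 (adjusted p = 0.269) and 0.15 for Kmt2e (adjusted p = 0.624).

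**Figure D4:**
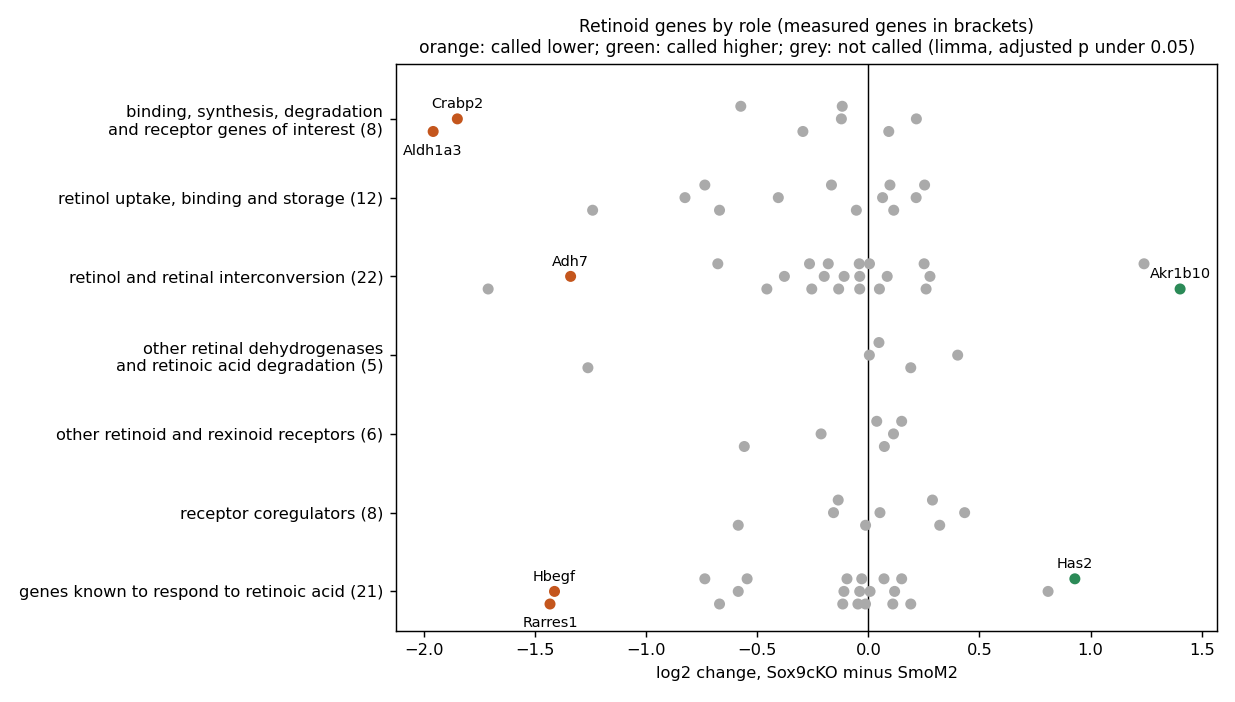
Log2 change, Sox9cKO minus SmoM2 (x axis), of every measured gene of each list (rows, measured genes in brackets), with genes called lower in orange, called higher in green and not called in grey. Called genes are Crabp2 and Aldh1a3 in the top row, Adh7 and Akr1b10 in the interconversion row, and Hbegf, Rarres1 and Has2 in the bottom row, which shares 6 measured genes with the rows above it.

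Genes known to respond to retinoic acid moved both ways. Of 21 measured (24 listed), 1 rose and 2 fell, 14.3% against 6.19% of all genes called in either direction, and the median change was -0.04. Hbegf, an EGF receptor ligand that retinoids induce in epidermis, read 10.42 and 10.79 in SmoM2 and 9.22 and 9.17 in Sox9cKO, and fell by 1.41 (SE 0.16, 2.66-fold, adjusted p = 0.00319, limma). Rarres1, named for its induction by a synthetic retinoid in skin, read 7.05 and 6.29 in SmoM2 and 5.20 and 5.28 in Sox9cKO, and fell by 1.43 (SE 0.24, 2.70-fold, adjusted p = 0.0158, limma). Has2, a hyaluronan synthase, read 6.23 and 6.38 in SmoM2 and 7.49 and 6.98 in Sox9cKO, and rose by 0.93 (SE 0.19, adjusted p = 0.0343, limma).

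Hbegf and Rarres1 stayed called under all 11 alternatives tried. Has2 missed the threshold without SmoM2 replicate 1 or 2 (adjusted p = 0.186 and 0.129) and without Sox9cKO replicate 1 (adjusted p = 0.105). Cyp26a1 and Rarb, which are direct targets of the receptors, are given above and read below the array medians. A further direct target, the retinal reductase gene Dhrs3, named after its values were seen, read 7.78 and 7.93 in SmoM2 and 7.60 and 8.03 in Sox9cKO (change -0.04, adjusted p = 0.946, limma).

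Markers of other cell types moved between the groups as well. Of 9 measured sebocyte markers, 2 fell (limma), against 3.53% of all genes. These were Cidea and Plin2, lipid droplet genes, with changes of -2.29 and -1.18. Of the 9, 6 were lower without overlap, against 21.8% of all genes. Scd1 was higher without overlap (change 0.28), and Fasn and Mc5r overlapped. The list averaged 8.51 and 7.64 in SmoM2 and 7.20 and 6.95 in Sox9cKO. Adh7, Adh1, Rarres1, Rbp7 and Stra6 shared with that list the order of the SmoM2 arrays, replicate 1 above replicate 2 and both above the Sox9cKO arrays. Rbp4, Rdh1, Rdh11, Rdh14, Adh5, Bco2, Dgat1, Rxra, Ncoa3 and Bhlhe40, none of them called, had that order as well. Crabp2, Rbp2 and Rdh10 had it too, with gaps of 0.33, 0.44 and 0.05 between the SmoM2 arrays against 1.03 for Adh7. Aldh1a3 was higher in SmoM2 replicate 2. How many of all genes had this order was not counted, and a sebocyte part in these values was not tested. Inner root sheath and hair cortex markers averaged 5.60 and 5.35 in SmoM2 and 6.91 and 6.62 in Sox9cKO. Of their 12 measured members, 7 were called higher (limma), against 2.66% of all genes. Suprabasal keratinocyte markers averaged 9.82 and 9.66 against 10.26 and 10.57, with 4 of 11 called higher (limma), against 2.66% of all genes. Of these 11, 6 were higher and 3 lower without overlap, against 26% and 21.8% of all genes. The part of these marker groups in the retinoid results was not tested. Of 12 measured markers of dermal papilla and fibroblasts, 10 lay below the median signal of all probe sets, against 7029 of all 18193 genes. Among them were Col1a1 at 4.08 to 4.51, Lum at 3.86 to 4.08 and Dpt at 3.72 to 4.07. Called members of that list were 2 of the 12 (limma), against 6.19% of all genes. Vcan was higher by 1.69, and Sox2 read 6.72 and 6.81 in SmoM2 and 3.98 and 3.15 in Sox9cKO. Basal keratinocyte markers averaged 11.51 and 11.85 in SmoM2 and 11.26 and 11.36 in Sox9cKO, and none of the 9 was called by limma. Of these, 5 had an unadjusted p under 0.05, against 17.8% of all genes, 6 were lower without overlap, against 21.8%, and the median change was -0.43. The largest changes were those of Col17a1, a hemidesmosome collagen (-0.87, adjusted p = 0.0779), and Itgb4, the integrin partner of Itga6 (-0.69, adjusted p = 0.0506, limma). Their part in the retinoid results was not tested either. Further marker lists were read in the same way. Of 9 bulge hair follicle stem cell markers, 1 was called higher and 2 lower (limma), against 6.19% of all genes called in either direction. Of 10 Langerhans and myeloid markers 1 was called higher, and of 5 measured T cell markers 1 was higher. None of 7 melanocyte, 5 endothelial and 6 Merkel cell markers was called. The part of these lists was not tested.

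**Figure D5:**
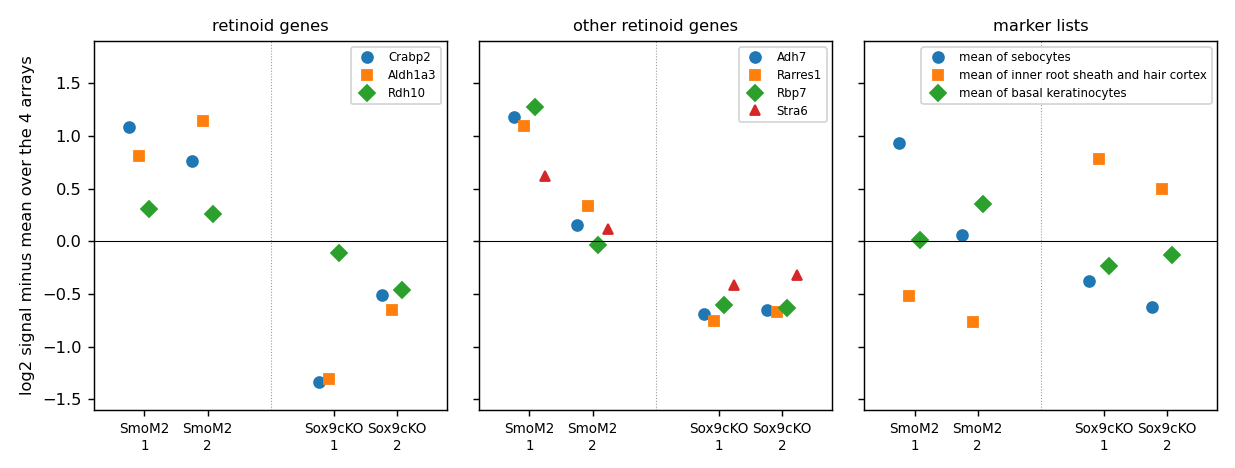
Log2 signal minus the mean over the 4 arrays (y axis) on each array (x axis) for Crabp2, Aldh1a3 and Rdh10 (left), for Adh7, Rarres1, Rbp7 and Stra6 (middle) and for the mean of 3 marker lists (right). In the middle panel SmoM2 replicate 1 is highest and the Sox9cKO arrays lie together, as for the sebocyte mean. All genes of that panel are among those named in the text for this order, so the likeness follows from the choice. Hbegf, called lower but not shown, was higher in SmoM2 replicate 2. In the left panel Crabp2 and Aldh1a3 are lowest in Sox9cKO replicate 1. A link between the panels was not tested.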

How the data were processed

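The authors deposited log2 signals, 1 for each of 45101 probe sets on each of 4 arrays, from 100 ng of total RNA labelled with the 3' IVT Express kit, per the labels' protocols. The submitters' processing notes list R 2.14.0 without a role, and how the arrays were normalized is not stated in those notes or in the labels. Values were used as deposited. Leaving out 64 control probe sets, 34945 had 1 gene symbol. Each gene was read at its probe set of highest mean over the 4 arrays. limma 3.58.1 (R 4.3.3; lmFit and eBayes, two-sided, no covariate, 7.17 degrees of freedom with the prior) was fitted across all genes and across all probe sets, with Benjamini-Hochberg adjustment and a threshold of 0.05. The procedure was tested on simulated data. Arrays give no read depth, so their number limits precision. The retinoid genes and the lists were chosen with earlier results of these data known. Named are all retinoid genes and, from each further list, called genes filled up to 3 by smallest p.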

Additional observations from a re-analysis of the deposited data

How the results depend on the processing

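The alternatives were leaving out each array, an intensity trend with robust prior, a replicate block, quantile normalization, leaving out dim genes, averaging a gene's probe sets, dropping _x_at and _s_at probe sets, and a block for Y-linked signal, which was chosen after seeing the data. Under them, 344 of 385 values of retinoid genes, their probe sets and genes named from the lists by rule kept sign and side of the threshold. Of the rest, 16 lost a call, 14 gained one and 11 changed sign. Adh1, Lrat, Dhrs3, the nearest genes and the marker genes are not among these values. Dhrs3 turned to 0.036 without SmoM2 replicate 2 and to 0.18 without Sox9cKO replicate 1. No called value changed sign. Leaving out single arrays turned the sign of Crabp1 (-0.27 to 0.036), Aldh1a2 (-0.056 to 0.24), Cyp26b1 (-0.41 to 0.16) and Rarg (-0.024 to 0.46 at its brighter probe set, -0.083 to 0.20 at its dimmer one). It gave 534 to 900 called genes against 1126, 1021 to 1142 called probe sets against 1720, 1 to 2 retinoid genes, 2 to 3 retinoid probe sets, 1 to 5 other pathway genes and 2 to 3 responsive genes. Other pathway genes numbered 1 with the trend and robust prior, 1 with quantile normalization and 5 with the Y-linked block. The replicate numbers are not known to pair arrays (deviations from the group means correlated at 0.09 over genes and 0.12 over probe sets). With a replicate block, 1919 genes, 3474 probe sets, 10 other pathway genes and 8 responsive genes were called, and Rdh10 passed (adjusted p = 0.0355). The pathway genes were Adh7, Akr1b10, Adh1 (adjusted p = 0.00480), Lrat (0.0123), Rbp2 (0.00367), Rbp7 (0.00610), Stra6 (0.0177), Sdr16c5 (0.00933), Cyp1b1 (0.0292) and Nrip1 (0.0389). The cause was not tested.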
